A study of Mus musculus with 6 samples.

Results

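The core circadian clock genes were examined in pancreatic islets of Langerhans, which hold the insulin- and glucagon-secreting cells, by RNA sequencing. The group was taken by symbol from the deposited count table and holds 10 genes of 24407: Arntl, Clock, Npas2, Per1, Per2, Per3, Cry1, Cry2, Dbp and Nr1d1. All 10 were found and all 10 passed the filter on low counts, which left 14539 genes. Islets came from C57BL/6 mice aged 70 weeks on regular chow. Wild-type mice (WT) were compared with mice of the lmna LCS genotype (LCS), whose Lmna gene yields lamin C and no lamin A. Each genotype had 3 libraries, and islets of 3 mice were pooled per library, so each value averages its animals. The labels name no tissue-specific driver for the LCS allele and give neither sex nor the hour at which islets were isolated. The mice were kept on a light/dark cycle.

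The circadian clock is a transcriptional feedback loop that runs in nearly every cell. Clock or its paralog Npas2 pairs with Arntl (also called Bmal1), and the pair binds E-box motifs and activates the Per and Cry genes, Dbp and Nr1d1. PER and CRY proteins return to the nucleus and block the pair, while NR1D1 (REV-ERB alpha) represses Arntl through a motif called the RRE, which ROR receptors activate. In islets the clock is known to time insulin secretion, and mice that lack Arntl in beta cells become glucose intolerant. Because members of the loop peak at different hours, their levels in a sample depend on the time of collection.

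Textbook clock motifs were looked for in the RefSeq promoter windows of the members (GRCm38.p6, from 250 bases before to 50 bases after each start site, both strands). There were 13 windows for 9 members, and Per2 had none in the table. The matches are shown because they are the letters through which the loop is described above, and positions are counted from the start site on the gene's own strand. Capitals mark the match. The letters searched for the E-box were CACGTG. Those for the weaker variant called the E'-box were CACGTT, which read AACGTG on the opposite strand. For the D-box, the site that DBP binds, either TTATGTAA or TTACGTAA was accepted. For the RRE the core searched was TAGGTCA, and its variant TGGGTCA also counted. The CRE, the site of CREB, was searched as TGACGTCA.
Per1 E-box, chr11:69098773-69098798, plus strand, at -166: cacccaagtcCACGTGcagggatgtg
Cry1 E-box, chr10:85185099-85185124, minus strand, at -60: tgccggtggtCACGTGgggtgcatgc
Cry1 E'-box, chr10:85185118-85185143, minus strand, at -79: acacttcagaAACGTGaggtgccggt
Cry2 E'-box, chr2:92434220-92434245, minus strand, at -166: acatggtgggAACGTGagggggcgga
Nr1d1 E'-box, chr11:98775390-98775415, minus strand, at -28: cacagatctcAACGTGccggctgctg
Per3 D-box, chr4:151044853-151044880, minus strand, at -205: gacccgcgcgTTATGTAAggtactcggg
Per3 D-box, chr4:151044806-151044833, minus strand, at -158: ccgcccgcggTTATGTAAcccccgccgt
Arntl RRE core, chr7:113207531-113207557, plus strand, at 31: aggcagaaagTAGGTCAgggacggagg
Among all 32851 windows of this length, 7.15% held the E-box, 4.68% the E'-box, 1.06% the D-box, 6.45% the RRE core and 1.79% the CRE, which no member window held. The matches describe letters in these short windows and do not show binding.

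Libraries differed before any clock gene was considered. They held 26123654 to 68036676 counts. The rows Rn45s, Lars2 and Mir6236 were grouped as ribosomal RNA rows, which was not tested, and Lars2 is itself a protein-coding gene. These rows took 52.29% to 54.11% of LCS counts and 7.636% to 18.53% of WT counts, leaving 19057533 to 32462401 counts elsewhere. The 6 hormone genes Gcg, Iapp, Ins1, Ins2, Ppy and Sst were abundant in every library. Levels are in CPM (counts relative to library size, scaled between libraries). The hormone sum was 193400 to 288300 CPM in LCS and 159800 to 187100 CPM in WT. Single hormone genes differed in how far they moved. Ppy had 1632 to 3379 CPM in LCS and 526 to 942 CPM in WT (log2 fold change 1.86, edgeR adjusted p = 0.0172). Sst had 1613 to 2097 CPM in LCS and 238 to 1209 CPM in WT (1.57, edgeR adjusted p = 0.103). Iapp was at -0.03, with overlapping libraries. Of the 6 genes, 4 had every LCS library above every WT library, and only Ppy was called. Of 18 acinar markers 17 were tested, and all 17 had log2 fold changes above 0. EdgeR called 15 of them higher at an adjusted p under 0.05, as it did 2.06% of all genes tested. The summed acinar level was 533.3 to 941.7 CPM in LCS and 146 to 234.3 CPM in WT, and Amy2a5 had no count. Summed macrophage markers (77.03 to 94.28 CPM in LCS, 51.25 to 63.89 CPM in WT) were also higher in every LCS library, but 3 of the 7, Adgre1, Csf1r and Cd68, had log2 fold changes below 0 (-0.62, -0.16 and -0.03). Of the others only Lyz2 was called, at 1.48 (edgeR adjusted p = 0.0142). Summed B and plasma cell markers were at 10.7 to 15.28 CPM in LCS and 4.885 to 10.17 CPM in WT. Duct, endothelial, fibroblast and neural marker sums overlapped. The duct sum was 768.1 to 948.9 CPM in LCS and 872.1, 453.7 and 534.4 CPM in WT replicates 1, 2 and 3, so only WT replicate 1 overlapped. WT replicate 1 also had the highest fibroblast sum, at 85.87 CPM against 20.92 and 35.68 CPM in WT replicates 2 and 3. Its endothelial sum (209.3 CPM) lay between those of the other WT libraries (177.6 and 211.9 CPM). The part of these differences in the clock values was not tested, and in bulk islets fewer cells of a type and less RNA per cell cannot be told apart.

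Whether the clock genes differ between LCS and WT islets was asked in a fit across all genes. None of the 10 members was called at an edgeR adjusted p under 0.05, where 2.21% of all genes tested were called (2.06% higher and 0.144% lower). One member, Clock, had an unadjusted p under 0.05, against 24.1% of all genes; DESeq2, which called 10.4% of all genes, also called 0 members, with 2 at an unadjusted p under 0.05. The log2 fold changes of LCS over WT ran from -0.58 to 0.25, with 6 members below 0 and 4 above. Their median was -0.07, and that of all genes tested was 0.01. The 95% intervals excluded a 2-fold change in either direction for every member except Clock, whose lower bound was -1.10. In simulated libraries of this depth and spread, 0% of genes changed 1.5-fold and 54% of those changed 2-fold were called, with 50 genes simulated at each fold. The simulation left 14339 of 14539 genes unchanged and held no shift by transcript length. In the data 24.1% of all genes had an unadjusted p under 0.05, and more small p-values ease the adjusted threshold. The simulated shares may therefore not carry over to the data. Differences of about 1.5-fold could still be missed by this edgeR fit.

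**Figure D1:**
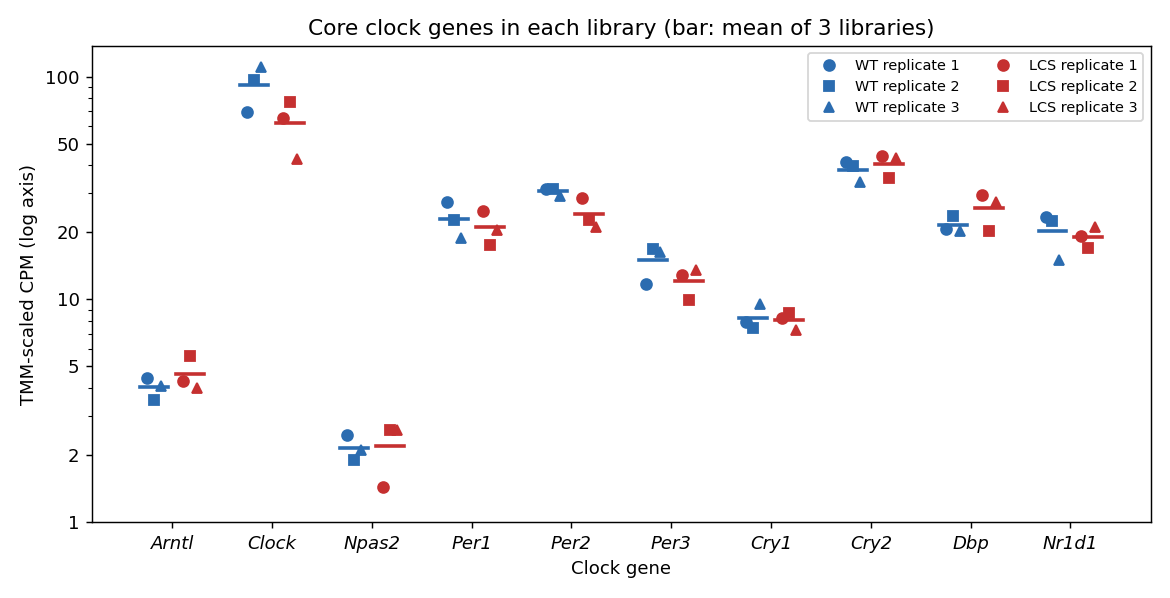
Scaled CPM (log axis) of the 10 core clock genes by library: blue points are WT, red points LCS, and each bar is a mean (n = 3). The genotypes overlap for every gene except Per2, whose LCS libraries (21.2 to 28.5 CPM) lie below the WT libraries (29.0 to 31.4 CPM).

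The activators of the loop were present at very different levels. Clock (gene 12753), the DNA-binding partner of Arntl, had 65.0, 77.1 and 42.8 CPM across LCS replicates 1, 2 and 3 and 69.5, 96.5 and 110.5 CPM across WT replicates 1, 2 and 3, the order kept below. LCS replicate 3 was the lowest library and WT replicates 2 and 3 the highest, while WT replicate 1 lay among the LCS values. The mean was 61.7 ± 17.4 CPM in LCS and 92.1 ± 20.8 CPM in WT (SD, n = 3). The log2 fold change was -0.58 (SE 0.24, 95% interval -1.10 to -0.05), with an edgeR adjusted p of 0.177, and 19.3% of all genes tested had a smaller p. Without WT replicate 1 Clock was called lower (log2 -0.74, edgeR adjusted p = 0.0369), in a fit that called 20.2% of all genes (12.5% higher and 7.68% lower). The value was -0.36 without LCS replicate 3 (edgeR adjusted p = 0.476).

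Arntl (gene 11865), the obligate partner of CLOCK and NPAS2, had 4.30, 5.58 and 4.02 CPM in LCS and 4.45, 3.55 and 4.08 CPM in WT. The single highest value was that of LCS replicate 2, and the other 5 libraries were interleaved. Its log2 fold change was 0.21 (SE 0.22, 95% interval -0.29 to 0.70). Npas2 (gene 18143), the paralog that can stand in for Clock, was the scarcest member, with 41 to 132 counts per library. It had 1.43, 2.59 and 2.58 CPM in LCS and 2.45, 1.90 and 2.12 CPM in WT. The lowest and the highest value both came from LCS libraries, and the log2 fold change was 0.04 (SE 0.30, 95% interval -0.62 to 0.70).

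The Per genes code for the repressors whose messengers rise and fall most directly with E-box activation, and Per1 and Per2 also respond acutely to cAMP and glucocorticoids. Per2 (gene 18627) was the only member whose genotypes did not overlap, at 28.5, 22.8 and 21.2 CPM in LCS and 31.3, 31.4 and 29.0 CPM in WT. Among all genes tested, 12% had every LCS library below every WT library and 26.6% had no overlap in either direction. The log2 fold change of Per2 was -0.34 (SE 0.16, 95% interval -0.69 to 0.01), with an edgeR adjusted p of 0.221. Per3 (gene 18628), the Per gene least needed for rhythm, had 12.8, 9.92 and 13.6 CPM in LCS and 11.7, 16.9 and 16.4 CPM in WT. WT replicate 1 lay within the LCS range, and the log2 fold change was -0.31 (SE 0.20, 95% interval -0.75 to 0.13). It moved to -0.15 without LCS replicate 2 and to -0.46 without WT replicate 1, and was not called in either fit.

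Per1 (gene 18626) had 25.0, 17.6 and 20.5 CPM in LCS and 27.3, 22.6 and 18.9 CPM in WT, with a log2 fold change of -0.13 (SE 0.19, 95% interval -0.55 to 0.30). Its highest value came from WT replicate 1. That library also had the highest levels of the immediate early genes Fos (18.96 CPM, against 4.62 to 10.6 in the others), Junb (64.9 CPM against 6.74 to 49.4) and Egr1 (51.0 CPM against 14.9 to 34.1). Other immediate early or cAMP-responsive genes were not highest there. Among them, Ier2 had 12.4 CPM against 13.2 in LCS replicate 3, Atf3 3.10 against 3.71 in LCS replicate 1, and Crem 36.9 against 49.2 in LCS replicate 2. Whether the Per1 level of WT replicate 1 moved with Fos, Junb and Egr1 for a shared reason was not tested. Without WT replicate 1 the log2 fold change of Per1 was 0.02.

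The Cry genes code for the stronger repressors of the loop and varied little. Cry1 (gene 12952), the late-peaking paralog, had 8.22, 8.72 and 7.27 CPM in LCS and 7.92, 7.45 and 9.51 CPM in WT. Cry2 (gene 12953) had 43.9, 35.1 and 43.1 CPM in LCS and 41.6, 39.6 and 33.7 CPM in WT. For both genes the libraries of the 2 genotypes were interleaved, and the highest library was 1.31 and 1.3 times the lowest. The log2 fold changes were -0.04 (SE 0.18, 95% interval -0.44 to 0.36) for Cry1 and 0.09 (SE 0.15, 95% interval -0.26 to 0.43) for Cry2. Cry2 shares 4.67% of its exon bases with the antisense transcript D930015M05Rik.

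Dbp (gene 13170) codes for a PAR bZIP activator and is a direct output of the loop; it is not the vitamin D binding protein gene Gc. It had 29.3, 20.3 and 27.3 CPM in LCS and 20.8, 23.7 and 20.3 CPM in WT. LCS replicates 1 and 3 were above every WT library, but LCS replicate 2 was the lowest of all. Its log2 fold change was 0.25 (SE 0.17, 95% interval -0.14 to 0.63), with an edgeR adjusted p of 0.407. Without LCS replicate 2 it was 0.42 (SE 0.15) and was not called. Nr1d1 (gene 217166), the repressor of Arntl, had 19.3, 16.9 and 21.1 CPM in LCS and 23.5, 22.6 and 15.0 CPM in WT. Here the extremes were WT libraries, and the log2 fold change was -0.09 (SE 0.20, 95% interval -0.53 to 0.34).

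Dbp and Nr1d1 each overlap a gene on the opposite strand. In GENCODE M21, 18.01% of the exon bases of Dbp are shared with Sphk2, a sphingosine kinase gene, and 8.55% of those of Nr1d1 with Thra, the thyroid hormone receptor alpha gene. Without a stated strand setting, reads over the shared bases may not be told apart. Thra was at -0.01 on the log2 scale (SE 0.19; edgeR adjusted p = 0.972) and Sphk2 at 0.29 (SE 0.23; edgeR adjusted p = 0.451).

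Levels of different genes were compared per kilobase of transcript (scaled CPM divided by the median length of RefSeq-linked transcripts). In WT the order was Clock at 12.3 ± 2.79 CPM per kb, Dbp at 11.8 ± 1.02, Cry2 at 9.63 ± 1.02, Nr1d1 at 7.49 ± 1.72 and Per2 at 5.24 ± 0.229 CPM per kb (SD, n = 3). Per1 followed at 4.93 ± 0.908 CPM per kb, then Cry1 at 2.74 ± 0.356, Per3 at 2.501 ± 0.478, Arntl at 1.47 ± 0.165 and Npas2 at 0.509 ± 0.066 CPM per kb. The WT libraries of neighbours overlapped for Clock and Dbp, Cry2 and Nr1d1, Per2 and Per1, and Cry1 and Per3, and did not overlap for the other neighbours. In LCS the order differed in that Dbp (13.96 ± 2.58 CPM per kb) and Cry2 (10.2 ± 1.22) stood above Clock (8.24 ± 2.33) and Per1 above Per2. These levels rest on annotated lengths and carry any difference in capture between transcripts.

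Ratios of 2 members within a library do not depend on how libraries are scaled, and are given without a test. The log2 ratio of Clock to Npas2 was 4.05 to 5.50 in LCS and 4.82 to 5.71 in WT. That of Cry1 to Cry2 was -2.57 to -2.01 in LCS and -2.41 to -1.83 in WT. The log2 ratio of Per1 to Per2 was -0.20 ± 0.16 in LCS and -0.43 ± 0.22 in WT (SD, n = 3). The log2 ratio of Arntl to Dbp, genes of opposite phase in most tissues, was -2.77, -1.86 and -2.77 in LCS replicates 1 to 3 and -2.22, -2.74 and -2.32 in WT replicates 1 to 3. Its means of -2.47 and -2.43 differed by 0.04, less than the SD within either genotype (0.52 and 0.28). The genotypes overlapped in all 9 ratios computed.

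Libraries of the same genotype differed among themselves in which members were high. Among LCS libraries, replicate 2 had the highest Arntl, Clock and Cry1 and the lowest Per1, Per3, Cry2, Dbp and Nr1d1. Npas2 was nearly equal in LCS replicates 2 and 3 (2.59 and 2.58 CPM), and Per2 in replicate 2 lay between the other LCS libraries. Relative to the LCS mean, replicate 2 was at 0.28 for Arntl, 0.37 for Clock and 0.12 for Cry1 on the log2 scale, and at -0.32 for Dbp, -0.28 for Per3 and -0.24 for Per1. The PAR bZIP genes Tef and Hlf were each at -0.20 in that library and Ciart, a repressor of the CLOCK and ARNTL pair, at -0.17. Other genes driven by the loop did not share this: Nr1d2 was at 0.10, Bhlhe40 at 0.06 and Bhlhe41 at 0.03. It was also the deepest library, with 68036676 counts. Among WT libraries, replicate 3 had the lowest Per1, Per2, Cry2, Dbp and Nr1d1 and the highest Clock and Cry1, but Arntl was at 0.02 and Per3 at 0.15. Hlf was at 0.35, Nr1d2 at 0.22, Bhlhe41 at 0.08, Tef at 0.03, Ciart at 0.01 and Bhlhe40 at -0.04 in WT replicate 3. These patterns were noticed in the values, each library is a pool of 3 mice, and the cause was not tested. The within-genotype coefficient of variation had a median of 16.3% over the members and 18.3% over all genes tested, from 11.2% for Cry1 to 25.6% for Clock.

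**Figure D2:**
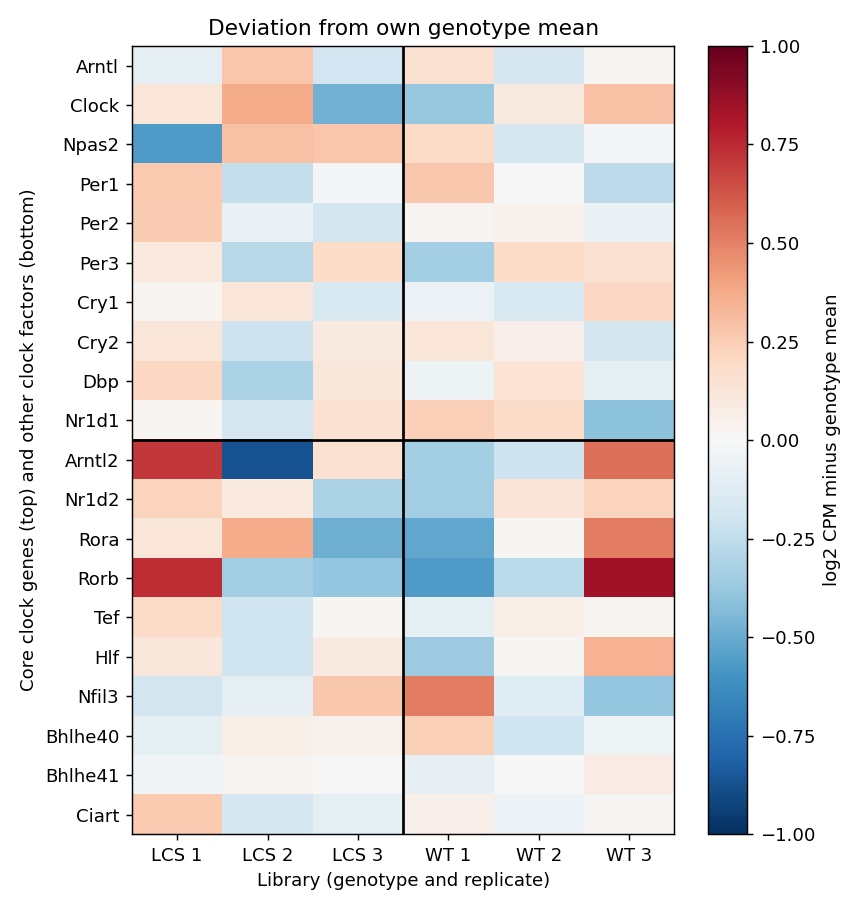
Deviation of each library from the mean of its own genotype (log2 CPM, colour) for the 10 core clock genes above the line and 10 other clock transcription factors under it. LCS replicate 2 is at 0.37 for Clock and -0.32 for Dbp, and Arntl2 and Rorb, at about 1 CPM, vary most.

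Transcript length moved with the fold changes of the members. Spearman's rho between length and log2 fold change was -0.83 over the 10 members, which share the same 6 libraries. The longest, Clock (7478 nt), Per3 (5999 nt) and Per2 (5833 nt), had the lowest log2 fold changes, and the shortest, Dbp (1837 nt), the highest. All tested protein-coding genes showed the same order: transcripts of 1000 to 2000 nt had a median of 0.31, those of 2000 to 4000 nt -0.01 and those from 4000 nt -0.24. By library, genes of 4000 nt and longer had a median of -0.06 in LCS replicate 1, -0.01 in LCS replicate 2 and -0.27 in LCS replicate 3, the library lowest in Clock, and of 0.03 in WT replicate 1, 0.14 in WT replicate 2 and 0.18 in WT replicate 3 (log2, relative to the mean of all 6 libraries).

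With an offset for transcript length the log2 fold change was -0.32 for Clock (SE 0.17, edgeR adjusted p = 0.357), -0.11 for Per2, -0.04 for Per3 and 0.03 for Dbp. When GC content was added to the offset Clock was at -0.09 (SE 0.10, edgeR adjusted p = 0.669) and Per2 at -0.19, and Dbp was at -0.37 (edgeR adjusted p = 0.417). No member was called under either offset. The offsets were fitted within each library over protein-coding genes. They therefore also take out any genotype difference that transcripts of like length or GC content share. A smaller value under an offset does not show where the difference came from, which was not tested.

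**Figure D3:**
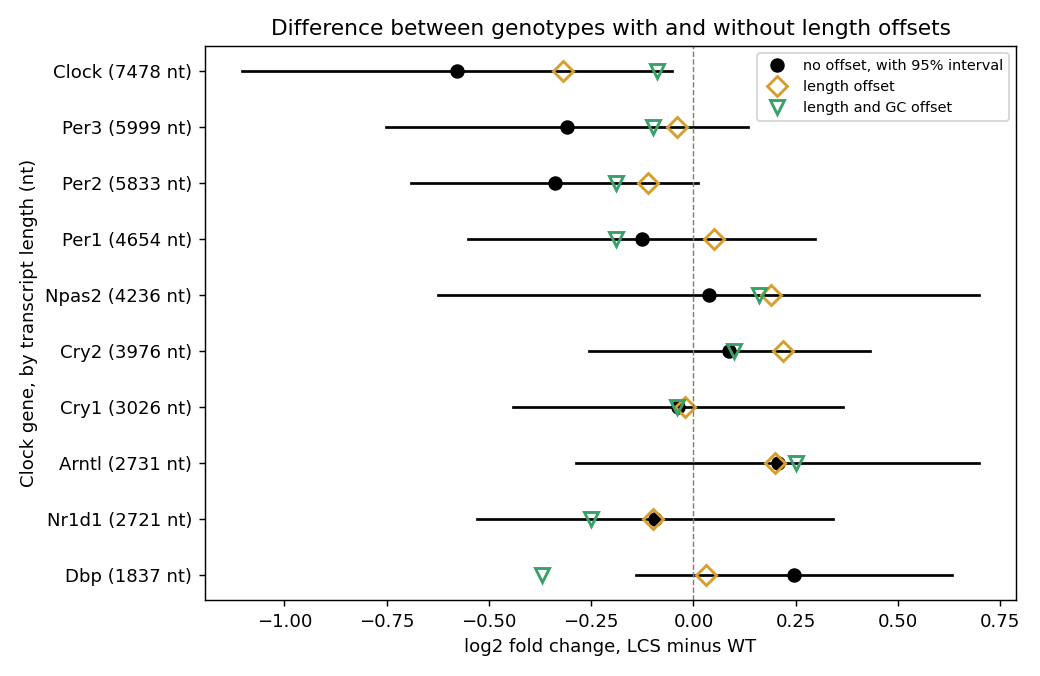
Clock genes with their log2 fold changes (LCS minus WT), ordered by transcript length (nt), with its 95% interval (black) and the values under a length offset (open diamonds) and a length and GC offset (open triangles). Clock goes from -0.58 to -0.32 and -0.09, and Dbp from 0.25 to 0.03 and -0.37.

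The other genes of the pathway were read from lists drawn up from textbook knowledge. Of 11 further clock transcription factors none was called in edgeR (median log2 fold change -0.26). An unadjusted p under 0.05 was reached by 0 higher and 2 lower genes, Nr1d2 and Rora, which DESeq2 called lower. Over all genes these shares were 13.3% higher and 10.8% lower at that p, and DESeq2 called 6.44% higher and 3.93% lower. Nr1d2 (REV-ERB beta), the paralog of Nr1d1, had 58.2, 53.6 and 39.9 CPM in LCS and 58.9, 82.4 and 87.9 CPM in WT. No LCS library reached the WT range, whose lowest library was again WT replicate 1. Its log2 fold change was -0.59 (SE 0.20, edgeR adjusted p = 0.121). Rora, the receptor that activates Arntl through the RRE, had 39.8, 47.5 and 26.1 CPM in LCS and 43.8, 63.4 and 89.7 CPM in WT, and its log2 fold change was -0.79 (SE 0.28, edgeR adjusted p = 0.134). As for Clock, the lowest library was LCS replicate 3 and the highest WT replicate 3. With length and GC offsets Nr1d2 was at -0.17 and Rora at -0.42, and neither was called. Nfil3, a repressor that competes with DBP at D-boxes, was at 0.51 (SE 0.25, edgeR adjusted p = 0.24).

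Without WT replicate 1, Nr1d2 (log2 -0.75, edgeR adjusted p = 0.0161) and Rora (-1.01, 0.0157) were called lower and Nfil3 higher (0.81, 0.0205), in the fit that called 20.2% of all genes. With WT replicate 2 left out as well, which leaves only WT replicate 3, Rora was at -1.24, Nr1d2 at -0.80 and Nfil3 at 0.95. Arntl2, Rorb, Tef, Hlf, Bhlhe40, Bhlhe41 and Ciart were called in none of the fits.

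Of 27 kinases, ubiquitin ligase parts and cofactors that act on clock proteins, none was called in edgeR. An unadjusted p under 0.05 was reached by 2 higher and 7 lower genes, where 13.3% and 10.8% of all genes were, and the list median was -0.14. Sirt1, an NAD-dependent deacetylase that acts on clock proteins, had 6.54, 6.97 and 6.95 CPM in LCS and 10.001, 11.5 and 14.5 CPM in WT. Every LCS library lay below every WT library, and the log2 fold change was -0.81 (SE 0.19), just outside the threshold (edgeR adjusted p = 0.0557). Sirt1 was called lower in 4 of 16 alternatives, among them DESeq2 (adjusted p = 0.00344) and the fit with no filter on low counts (edgeR adjusted p = 0.0348). Csnk2a1, a catalytic subunit of casein kinase 2, was at -0.60 (SE 0.16, edgeR adjusted p = 0.0787) and Prkaa2, a catalytic subunit of AMP-activated kinase, at -0.86 (SE 0.30, edgeR adjusted p = 0.134). DESeq2, which called 3.93% of all genes lower, called both lower. The other casein kinase 2 genes listed were above 0, Csnk2a2 at 0.09 (SE 0.16, edgeR adjusted p = 0.7635) and Csnk2b at 0.41 (SE 0.15, edgeR adjusted p = 0.1385). With length and GC offsets Sirt1 was at -0.48, Csnk2a1 at -0.29 and Prkaa2 at -0.33, and none of them was called. The PER kinase genes Csnk1d and Csnk1e were at -0.10 (SE 0.12) and 0.17 (SE 0.16). Without WT replicate 1, Csnk2a1, Gsk3b, Prkaa1, Prkaa2 and Sirt1 were called lower, as were 7.68% of all genes.

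Of 15 clock output genes 13 were tested and none was called in edgeR (median -0.05). The unadjusted p was under 0.05 for 3 lower genes and 0 higher genes, against 10.8% and 13.3% of all genes, and Lonrf3 was called lower by DESeq2, as were 3.93% of all genes. Nampt, the enzyme of NAD salvage, had a log2 fold change of -0.40 (SE 0.16, edgeR adjusted p = 0.172), Lonrf3, a ring finger gene, -0.81 (SE 0.26, 0.119) and Gys2, the liver glycogen synthase gene, -1.54 (SE 0.60, 0.165). Gys2 was barely detected, at 0.0699 to 0.395 CPM. Lonrf3 was also called lower without WT replicate 1 (log2 -0.93, edgeR adjusted p = 0.0324), as were 7.68% of all genes. It was at -0.81 with a length offset and -0.83 with length and GC offsets, and was called under neither. Nampt was at -0.22 and 0.06 under these offsets. Avp had no count in any library.

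**Figure D4:**
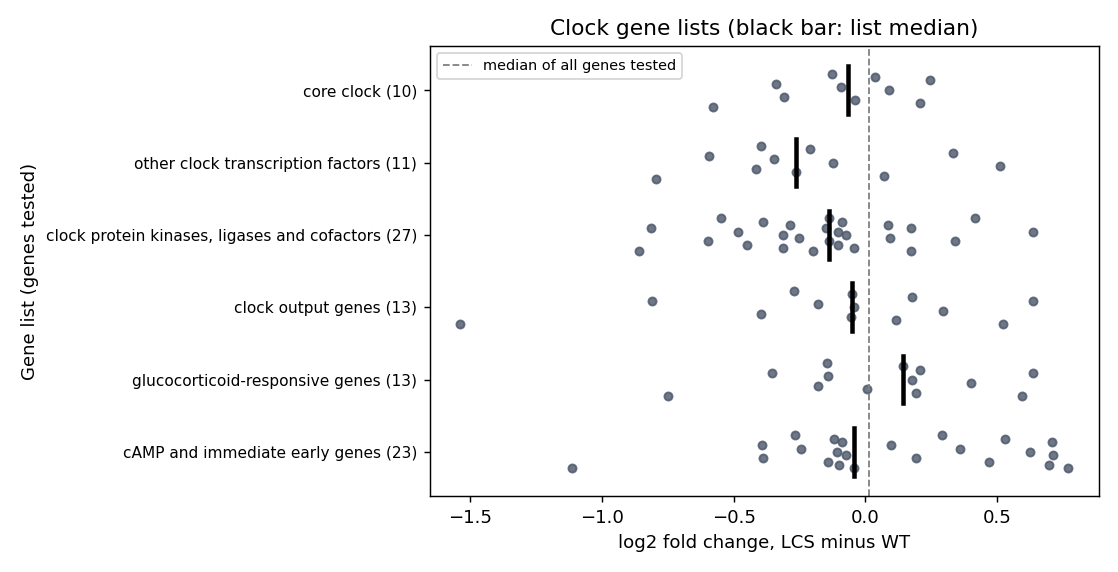
Points are the log2 fold changes (LCS minus WT) of the tested genes of 6 lists, with the list median as a black bar and the median of all genes tested (0.01) as a dashed line. Medians run from -0.26 for the other clock transcription factors to 0.14 for glucocorticoid-responsive genes, and edgeR called no gene shown.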

How the data were processed

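Poly(A) RNA of pooled islets was measured in 3 LCS and 3 WT libraries. The deposited values are whole-number counts per gene, not normalised. The tools listed in the submitters' processing notes are HTSeq 0.9.0, Bowtie2 2.2.9, TopHat2 2.1.1, FastQC and bcl2fastq 2.20, on mm9. Per the labels' protocols the kit was stranded TruSeq. The annotation and the counting's strand setting: not given in the sources used here. GRCm38 references served for names, lengths, overlaps and promoter letters, so promoter coordinates are not those of the counts.

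The genotypes were compared with edgeR 4.0.16 in R 4.3.3 (filterByExpr, TMM factors 0.6327 to 1.4982, quasi-likelihood, genotype as the only term, all 6 libraries, Benjamini-Hochberg over 14539 genes, threshold 0.05). Fold changes are LCS over WT and 95% intervals are not adjusted for multiple tests. The steps were tested on simulated counts. Named genes were the 10 members, the neighbours Thra and Sphk2, and per list the called genes (at most 6) or otherwise the 3 with the smallest p. Fos, Junb, Egr1, Ier2, Atf3, Crem, Csnk1d, Csnk1e, Csnk2a2, Csnk2b, Gsk3b, Prkaa1 and the other factors were named after their values were seen. The same holds for the single values of Ppy, Sst and Iapp. Single values of some listed genes are not reported here. Members and lists were chosen with earlier results of these data known. Alternatives were DESeq2 1.42.0, limma-voom (limma 3.58.1), other filters, loess offsets (span 0.5, degree 1) and left-out libraries. Lengths were known for 95.2% of genes tested and all 10 members.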

Additional observations from a re-analysis of the deposited data

How the results depend on the processing

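No paired analysis was possible because the labels give the genotypes no shared replicate numbers. The count of 0 members called higher held in all 16 alternatives, and that of 0 called lower in all but the fit without WT replicate 1, which called 1 (Clock). Over all genes, 300 were higher and 21 lower; counts were 937 and 571 by DESeq2, 560 and 126 with no filter, and 884 and 331 without WT replicates 1 and 2. On protein-coding genes alone they were 229 and 16 with no offset, 24 and 3 with a length offset, and 67 and 41 with length and GC offsets. Leaving out each library gave 81 to 1857 higher and 1 to 1142 lower, the highest of each from the fit without WT replicate 1. Directions turned for some values that were not called: without WT replicates 1 and 2, Per1 was at 0.15, Nr1d1 at 0.35 and Thra at 0.27; with length and GC offsets, Dbp was at -0.37, Nampt at 0.06, Mt1 at -0.54 and Mt2 at -0.52; with a length offset, Mt1 was at -0.31 and Mt2 at -0.40. Leaving out single libraries took Npas2 from -0.07 to 0.29, Per1 from -0.25 to 0.02, Cry1 from -0.11 to 0.07 and Nr1d1 from -0.27 to 0.02. The cause was not tested. Adding 1 CPM to each gene moved the difference between genotypes by less than the larger SD in all 9 ratios. The test on protein-coding genes with no offset was added after seeing the data. Of 50 genes simulated with a 1.5-fold change, edgeR called 0%; depth and number of libraries were not varied.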

Other observations

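Some genes that respond to the hormones and signals acting on Per1 and Per2 were also read. Of 13 glucocorticoid-responsive genes none was called in edgeR (median log2 fold change 0.14). The unadjusted p was under 0.05 for 2 higher genes and 1 lower gene, against 13.3% and 10.8% of all genes. The metallothionein genes Mt1 and Mt2 were called higher by DESeq2, as were 6.44% of all genes. Mt2 had 399, 337.1 and 452.4 CPM across LCS replicates 1, 2 and 3 and 279.8, 238.6 and 269.5 CPM across those of WT, a log2 fold change of 0.59 (SE 0.16, edgeR adjusted p = 0.0791), and Mt1 was at 0.64 (SE 0.18, edgeR adjusted p = 0.0936). Both are short transcripts, and with a length offset their log2 fold changes were -0.40 and -0.31. Klf9, a factor induced by glucocorticoids, was at -0.75 (SE 0.31, edgeR adjusted p = 0.185). The classical glucocorticoid targets Fkbp5, Tsc22d3 and Sgk1, named after their values were seen, were at -0.18 (SE 0.13), 0.18 (SE 0.17) and 0.00 (SE 0.15).

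Of 24 cAMP-responsive and immediate early genes 23 were tested and none was called in edgeR or DESeq2 (median -0.04). Over all genes tested, edgeR called 2.21% and DESeq2 10.4%. The unadjusted p was under 0.05 for 0 higher genes and 1 lower gene, against 13.3% and 10.8% of all genes. The members with the smallest p were Klf6 at -0.39 (SE 0.17; edgeR adjusted p = 0.187), Egr3 at -1.11 (SE 0.52; 0.227) and Arc at 0.69 (SE 0.40; 0.313). Without WT replicate 1, Egr1, Fos, Ier2, Ier3, Jun, Junb and Jund were called higher in LCS and the median was 0.47, in a fit that called 12.5% of all genes higher.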
